A study of Mus musculus with 6 samples.

Results

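The stress regulators examined here are 10 genes: the activating transcription factor genes Atf3, Atf4 and Atf5, the C/EBP genes Cebpb, Cebpd and Cebpg, their relative Ddit3, and the tribbles genes Trib1, Trib2 and Trib3. They were taken by name, as the rows of the deposited count table whose mouse symbol equals one of these names, and all 10 were found among 38293 rows. All 10 also passed the low-count filter, which left 14642 genes to test. RNA was measured in 6 libraries of wild-type primary cortical neurons, cultured from embryonic day 16 Swiss-Webster mice and collected at day 13 in vitro. The NMDA group (3 libraries) was bathed in 50 µM NMDA, an agonist of a class of glutamate receptors, for 10 minutes, washed, and left for 50 minutes in medium without drug. The control group (3 libraries) is labelled as having no treatment. The labels do not say which embryos or dissections a replicate number stands for, and their extraction text speaks of fewer biological replicates than the 3 libraries listed per group, so the p-values measure the spread between these libraries, part of which may be technical.

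ATF and C/EBP proteins are transcription factors that bind DNA through a basic region and pair through a leucine zipper. ATF4 is made at a higher rate when the translation factor eIF2 is phosphorylated, the switch of the integrated stress response, and it then drives genes for amino acid supply together with CHOP, the product of Ddit3. ATF3, C/EBPβ and C/EBPδ are made from genes that many cells switch on within minutes to hours of injury, cytokines or calcium entry. The tribbles proteins are pseudokinases, proteins with a kinase fold that mainly serve as scaffolds: TRIB1 and TRIB2 bring the COP1 ubiquitin ligase to C/EBPα, and TRIB3 is a target of ATF4 and CHOP that binds ATF4. Much of ATF4 control lies in translation, which RNA counts do not show.

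NMDA libraries held more Atf3, Cebpd and Trib1 RNA than controls, by 8.08-fold, 4.92-fold and 2.26-fold. These 3 of 10 members passed an edgeR adjusted p of 0.05 for a higher level, as did 0.376% of all tested genes, and 0 of 10 passed for a lower level, as did 0.0546% of all tested genes. At an unadjusted p under 0.05, 5 of 10 members passed, against 13.7% of all tested genes in either direction. In 6 members every NMDA library lay above every control library, a separation that 8.18% of tested genes showed. Those 6 were Atf3, Atf4, Cebpb, Cebpd, Trib1 and Trib2. The median log2 fold change was 0.34 over the 10 members and -0.0054 over all tested genes. Because earlier results of these data were known when the members were chosen, these contrasts with all tested genes are not independent of the choice.

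Libraries with the same replicate number deviated from their group means together, so the comparison was also made within numbers (the replicate block). With the block 6 members were higher, namely Atf3, Atf4, Atf5, Cebpb, Cebpd and Trib1, where 5.65% of tested genes were higher and 8.35% lower. DESeq2 with the same block called 4, Atf3, Atf4, Cebpd and Trib1, where it called 2.83% of tested genes higher. In 9 members the NMDA library exceeded the control of its own number in all 3 pairs, as it did in 22.5% of tested genes. The exception was Atf5.

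**Figure D1:**
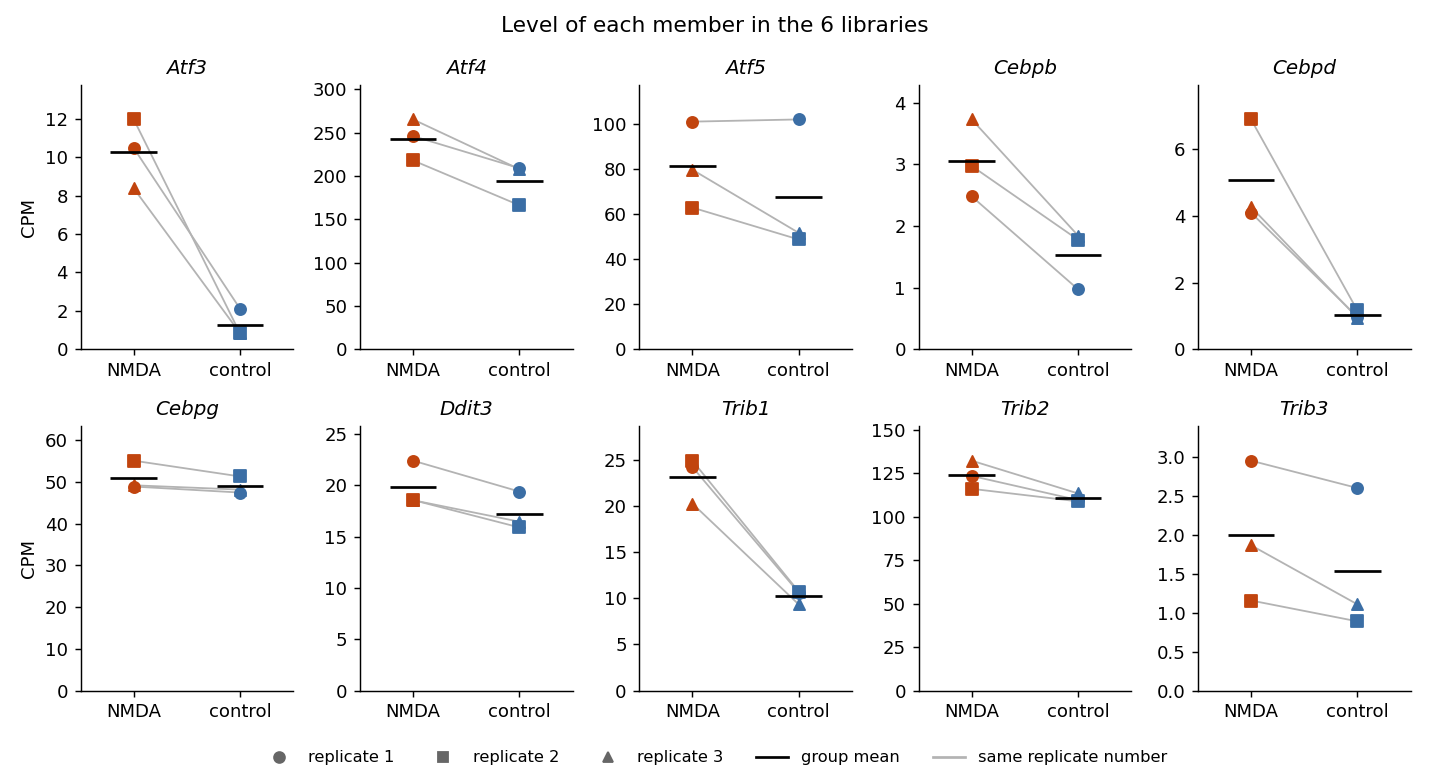
Level of each of the 10 genes in CPM (reads scaled to a common library size, y axis from 0) in the 3 NMDA libraries (left, orange) and the 3 control libraries (right, blue). Marker shapes give the replicate number, grey lines join libraries of the same number and black bars are group means. Each panel has its own scale. Relative to that scale, Atf3, Cebpd and Trib1 show the widest gaps between groups. Atf5, Ddit3 and Trib3 are highest in replicate 1 of both groups.

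**Figure D2:**
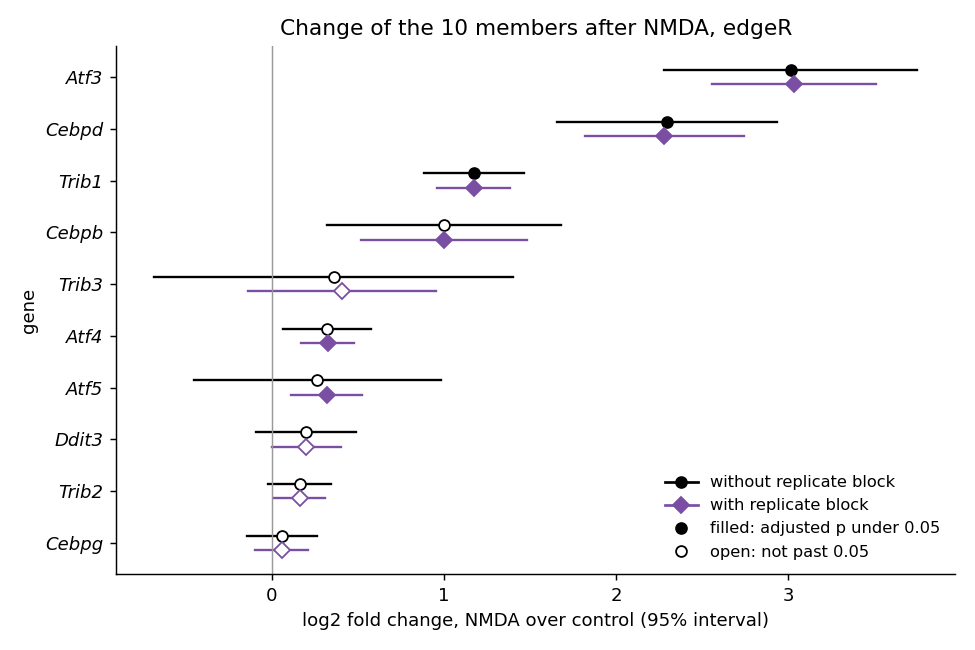
Log2 fold change of NMDA over control (x axis) for the 10 genes, with the 95% interval from edgeR, without the replicate block (black circles) and with it (purple diamonds). Filled markers passed an adjusted p of 0.05; without the block these are Atf3, Cebpd and Trib1, and with it also Cebpb, Atf4 and Atf5.

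Promoter sequence was available for 8 of the 10 genes, all but Cebpd and Trib1, as 250 bases before the RefSeq start on build GRCm38.p6, the build that the submitters' processing notes name. Atf5 has windows at 2 starts, giving 9 windows. Of the members called higher without the block, only Atf3 has a window, so counts over the 9 windows do not describe the called genes. They were searched on both strands for the cAMP response element TGACGTCA, its core TGACG, which lies within it, the AP-1 site TGANTCA, the C/EBP-ATF composite site TGATGNAA, the C/EBP site TTNNGCAA and the CArG box bound by serum response factor. The CRE core is in 4 of 9 windows (Atf3, Atf4, Cebpb and Trib3), as do 17.8% of 32851 RefSeq windows of the same length. The complete cAMP response element (1.55% of all windows), the C/EBP site (9.56%) and the CArG box (1.47%) are in none of the 9. Atf3 alone holds a composite site (3.45% of all windows), and Ddit3 alone an AP-1 site (6.75%), at bases -242 to -236.

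The Atf3 window is shown because Atf3 had the largest fold change of the members. It lies on the minus strand at chr1:191183334-191183583 and reads 5′ to 3′ towards the start, with matched letters in capitals. The GENCODE annotation extends Atf3 upstream to base 191218039, so this RefSeq start lies inside the annotated gene. No start further upstream was searched. The composite letters TTGCATCA, the reverse complement of the form searched, lie at bases -110 to -103, and a CRE core lies at -7 to -3.
Atf3: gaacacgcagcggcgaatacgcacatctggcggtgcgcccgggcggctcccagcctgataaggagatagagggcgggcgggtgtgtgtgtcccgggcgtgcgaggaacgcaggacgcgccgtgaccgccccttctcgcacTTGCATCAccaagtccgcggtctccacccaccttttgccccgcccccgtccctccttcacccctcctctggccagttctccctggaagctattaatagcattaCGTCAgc

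The last 60 bases before the start are shown for the other windows with a CRE core, to compare its position; capitals mark the core on either strand. The Atf4 stretch is chr15:80255124-80255183 on the plus strand, that of Cebpb chr2:167688855-167688914 on the plus strand and that of Trib3 chr2:152344061-152344120 on the minus strand.
Atf4: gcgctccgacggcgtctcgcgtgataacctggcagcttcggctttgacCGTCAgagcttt
Cebpb: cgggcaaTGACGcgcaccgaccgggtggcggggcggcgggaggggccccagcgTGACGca
Trib3: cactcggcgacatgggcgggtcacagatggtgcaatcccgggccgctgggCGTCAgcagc

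In these windows the core nearest the start lies at bases -12 to -8 in Atf4, -7 to -3 in Cebpb and -10 to -6 in Trib3. Cebpb has other cores at -53 to -49 and at -180 to -176, and Trib3 at -237 to -233. A match of letters describes the sequence and says nothing of whether a protein was bound.

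Atf3 encodes a stress-induced factor that, as a homodimer, mostly represses and that pairs with JUN proteins. On GRCm38 (GENCODE M21) the gene, ENSMUSG00000026628, covers bases 191170296 to 191218039 of chromosome 1 on the minus strand. Atf3 had 10.5, 11.95 and 8.37 CPM in NMDA replicates 1, 2 and 3, against 2.11, 0.834 and 0.844 CPM in control replicates 1, 2 and 3. The groups did not overlap, and control replicate 1 stood 2.52-fold above the mean of the other controls. The mean was 10.3 ± 1.80 CPM in NMDA and 1.26 ± 0.735 CPM in control libraries (SD, n = 3 each). The log2 fold change was 3.01 ± 0.33 (SE), an 8.08-fold rise (95% interval 4.85 to 13.5), with an edgeR adjusted p of 0.00419. Within numbers the ratio of NMDA to control was 4.95, 14.3 and 9.91 in pairs 1, 2 and 3, so the smallest ratio belongs to the pair with the high control. Behind these levels stood 156, 217 and 157 reads in the NMDA libraries and 39, 15 and 16 reads in the controls. The exact 95% Poisson interval of control replicate 1 was 27.7 to 53.3 reads and did not overlap those of control replicate 2 (8.40 to 24.7) and control replicate 3 (9.15 to 26.0). Without that library the log2 fold change was 3.6, the largest value among the alternatives, and Atf3 passed under every one of the 17 alternatives tried.

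Atf4 encodes the central factor of the integrated stress response and was the most abundant member. The gene, ENSMUSG00000042406, lies on chromosome 15 from 80255184 to 80257541 on the plus strand. Atf4 had 246, 218 and 265 CPM in NMDA replicates 1, 2 and 3, against 209, 166 and 208 CPM in control replicates 1, 2 and 3. Every NMDA library lay above every control, with replicate 2 lowest in both groups. The log2 fold change was 0.32 ± 0.12 (SE; 1.25-fold, 95% interval 1.05 to 1.49; edgeR adjusted p = 0.272) and did not pass. With the replicate block it was 0.33 ± 0.07 and Atf4 passed (edgeR adjusted p = 0.00578), with ratios of 1.18, 1.31 and 1.28 in the 3 pairs. In the blocked fit without replicate 2 the adjusted p was 0.153 at a log2 fold change of 0.29, and the call was lost.

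Atf5 encodes a factor that, like ATF4, is translated more under eIF2 phosphorylation, and that takes part in the mitochondrial stress response and in neural progenitors. The gene, ENSMUSG00000038539, lies on chromosome 7 from 44812256 to 44816658 on the minus strand. Atf5 had 101, 63.0 and 79.8 CPM in NMDA replicates 1, 2 and 3, against 102, 48.8 and 51.7 CPM in control replicates 1, 2 and 3. The groups overlapped through control replicate 1, which held 2.03-fold the mean of the other controls. The ratio was 0.990, 1.29 and 1.54 in pairs 1, 2 and 3. The log2 fold change was 0.27 ± 0.31 (SE; edgeR adjusted p = 0.746), and 0.32 ± 0.10 with the block (adjusted p = 0.0404). The blocked call did not hold without replicate 2 or 3: without replicate 3 the log2 fold change was 0.18 (adjusted p = 0.247), without replicate 2 it was 0.30 (adjusted p = 0.0799), without replicate 1 it was 0.51 (adjusted p = 1.5e-05), and DESeq2 with the block did not call it (adjusted p = 0.0819).

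Ddit3 encodes CHOP, a C/EBP relative whose long-lasting induction is linked to cell death under endoplasmic reticulum stress. The gene, ENSMUSG00000025408, lies on chromosome 10 from 127290774 to 127296288 on the plus strand. Ddit3 had 22.4, 18.6 and 18.5 CPM in NMDA replicates 1, 2 and 3, against 19.4, 15.9 and 16.5 CPM in control replicates 1, 2 and 3. The groups overlapped, and replicate 1 was highest in both. On the log2 scale the change was 0.20 ± 0.13 (SE; edgeR adjusted p = 0.531), and the 95% interval of the fold ran from 0.938 to 1.41. It did not pass with the block either (adjusted p = 0.172), although its ratios of 1.16, 1.17 and 1.13 lay close together. Exons of Mars on the opposite strand overlap 3.97% of its length, and GENCODE M21 holds another gene of the same name whose exons overlap 6.13%.

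Cebpd encodes C/EBPδ, a factor of the acute phase response that is present in glia as well as in neurons. The gene, ENSMUSG00000071637, lies on chromosome 16 from 15887286 to 15891031 on the plus strand. Cebpd had 4.09, 6.89 and 4.26 CPM in NMDA replicates 1, 2 and 3, against 0.975, 1.17 and 0.9495 CPM in control replicates 1, 2 and 3. Every NMDA library lay above every control, and NMDA replicate 2 stood 1.65-fold above the mean of the other NMDA libraries. The log2 fold change was 2.30 ± 0.29 (SE), a 4.92-fold rise (95% interval 3.16 to 7.65), with an edgeR adjusted p of 0.00624, and the ratios in the 3 pairs were 4.20, 5.90 and 4.49. Counts were low, with 61, 125 and 80 reads in NMDA and 18, 21 and 18 reads in control libraries. Without control replicate 2 the adjusted p was 0.0512 at a log2 fold change of 2.40 and the call was lost. Of its exonic length, 15% overlaps exons of Spidr on the opposite strand, and the strand setting of the counting is not given in the sources used here. Spidr stood at 4.99 ± 0.842 CPM in NMDA and 4.66 ± 0.746 CPM in control libraries (SD, n = 3 each; log2 0.10, edgeR adjusted p = 0.859).

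Cebpb encodes C/EBPβ, which pairs with C/EBPδ and acts in inflammation and, in neurons, downstream of calcium and cAMP signals. The gene, ENSMUSG00000056501, is a single exon on chromosome 2 from 167688915 to 167690418 on the plus strand. Cebpb had 2.48, 2.97 and 3.73 CPM in NMDA replicates 1, 2 and 3, against 0.975, 1.78 and 1.85 CPM in control replicates 1, 2 and 3. The groups did not overlap, and replicate 1 was lowest in both. Cebpb had a log2 fold change of 1.0 ± 0.30 (SE; 2.0-fold, 95% interval 1.25 to 3.20; edgeR adjusted p = 0.215) and did not pass. With the block it was 1.0 ± 0.23 and passed (adjusted p = 0.00643), as it did with any 1 pair left out, while DESeq2 with the block gave an adjusted p of 0.0767. These levels rest on 37 to 70 reads in NMDA and 18 to 35 reads in control libraries. Exons of Tmem189 on the opposite strand cover 20.7% of its length; Tmem189 stood at 29.4 ± 2.99 CPM in NMDA and 27.4 ± 1.51 CPM in control libraries (SD, n = 3 each; log2 0.10, edgeR adjusted p = 0.724).

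Cebpg encodes C/EBPγ, which lacks a transactivation domain and forms heterodimers with other C/EBPs and with ATF4. The gene, ENSMUSG00000056216, lies on chromosome 7 from 35046422 to 35056573 on the minus strand. Cebpg had 48.9, 55.1 and 49.2 CPM in NMDA replicates 1, 2 and 3, against 47.5, 51.3 and 48.2 CPM in control replicates 1, 2 and 3. The groups overlapped and the 6 values lay close together. Its log2 fold change was 0.06 ± 0.09 (SE; edgeR adjusted p = 0.806), and the 95% interval of the fold, 0.907 to 1.20, leaves room for a small change in either direction.

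Trib1 encodes the tribbles protein that directs COP1 to C/EBPα and that is known as a regulator of blood lipids and of myeloid cells. The gene, ENSMUSG00000032501, lies on chromosome 15 from 59648350 to 59657099 on the plus strand. Trib1 had 24.2, 24.9 and 20.3 CPM in NMDA replicates 1, 2 and 3, against 10.6, 10.7 and 9.34 CPM in control replicates 1, 2 and 3. The gap between the groups was wide beside the spread within them. The mean was 23.1 ± 2.51 CPM in NMDA and 10.2 ± 0.774 CPM in control libraries (SD, n = 3 each). On the log2 scale the rise was 1.18 ± 0.13 (SE), a 2.26-fold rise (95% interval 1.85 to 2.76), with an edgeR adjusted p of 0.00419. The ratios in pairs 1, 2 and 3 were 2.28, 2.32 and 2.17, and the call held under all 17 alternatives, with log2 fold changes from 1.116 to 1.279.

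Trib2 encodes a tribbles protein that also binds COP1 and that is known from leukaemia models. The gene, ENSMUSG00000020601, lies on chromosome 12 from 15791727 to 15816922 on the minus strand. Trib2 had 124, 116 and 132 CPM in NMDA replicates 1, 2 and 3, against 109.7, 109 and 114 CPM in control replicates 1, 2 and 3. The groups did not overlap, yet the log2 fold change was 0.16 ± 0.08 (SE; edgeR adjusted p = 0.409) and did not pass, also not with the block (adjusted p = 0.135). The 95% interval of the fold was 0.987 to 1.27.

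Trib3 encodes the tribbles protein that ATF4 and CHOP induce. The gene, ENSMUSG00000032715, lies on chromosome 2 from 152337422 to 152344032 on the minus strand. Trib3 had 2.95, 1.16 and 1.87 CPM in NMDA replicates 1, 2 and 3, against 2.60, 0.889 and 1.11 CPM in control replicates 1, 2 and 3. The groups overlapped, and replicate 1 was highest in both. Trib3 had a log2 fold change of 0.36 ± 0.47 (SE; edgeR adjusted p = 0.772), the 95% interval of the fold ran from 0.623 to 2.64, and Trib3 did not pass with the block (adjusted p = 0.329). Libraries held 16 to 48 reads. Without control replicate 1 the log2 fold change was 0.97 and without NMDA replicate 1 it was -0.0079, and neither passed.

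Replicate 1 differed from the other numbers in some members and not in others. Control replicate 1 held 2.60-fold the mean of the other controls in Trib3, 2.52-fold in Atf3 and 2.03-fold in Atf5, and 0.538-fold in Cebpb. NMDA replicate 1 held 1.95-fold the mean of the other NMDA libraries in Trib3, 1.42-fold in Atf5 and 0.740-fold in Cebpb, but 1.03-fold in Atf3. In Atf4, Cebpg, Trib1 and Trib2 replicate 1 lay within 0.938-fold to 1.117-fold of the others in both groups.

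Expressed per length, as CPM per kb of exonic length, the members spanned a wide range of levels. In control libraries the order was Atf4 at 82.5 ± 10.3, Atf5 at 33.9 ± 15.03, Trib2 at 25.5 ± 0.565, Ddit3 at 10.1 ± 1.10, Cebpg at 8.71 ± 0.365 and Trib1 at 1.64 ± 0.124 CPM per kb (SD, n = 3). Below these came Cebpb at 1.02 ± 0.322, Trib3 at 0.721 ± 0.438, Atf3 at 0.587 ± 0.341 and Cebpd at 0.275 ± 0.0318 CPM per kb. Neighbours whose control libraries overlapped were Atf5 with Trib2, Cebpb with Trib3 and Trib3 with Atf3. In NMDA libraries Atf3 stood at 4.76 ± 0.837 CPM per kb, next after Cebpg at 9.08 ± 0.622 and overlapping Trib1 at 3.70 ± 0.402 CPM per kb. Ddit3 depended most on the length used: with its longest transcript in place of all exons it was at 17.8 CPM per kb in control libraries.

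Within the families the make-up of the RNA was described as shares of the summed level per kb, which follow from the levels of the members given above. Of the summed C/EBP level per kb, Cebpg held 76.0%, 72.0% and 70.7% in NMDA replicates 1, 2 and 3, against 90.3%, 85.9% and 85.3% in control replicates 1, 2 and 3. Cebpd held 10.7% ± 2.39 in NMDA and 2.75% ± 0.208 in control libraries, and Cebpb 16.3% ± 3.22 in NMDA and 10.1% ± 2.79 in control libraries (SD, n = 3 each). For each of these 3 shares the two-sided exact permutation p was 0.1, the smallest that 3 against 3 libraries allow. Among the tribbles genes, Trib1 held 11.2% ± 1.70 in NMDA and 5.87% ± 0.515 in control libraries (exact permutation p = 0.1), and Trib2 held 86.0% ± 1.90 in NMDA and 91.6% ± 1.69 in control libraries. Among the ATF genes, Atf3 stayed a small part at 3.27% ± 0.921 in NMDA and 0.481% ± 0.189 in control libraries, while Atf4 held 69.5% ± 3.70 in NMDA and 71.3% ± 7.39 in control libraries (exact permutation p = 0.7). Of the 9 shares compared, 6 reached that smallest value. Shares of a sum are not independent of each other.

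**Figure D3:**
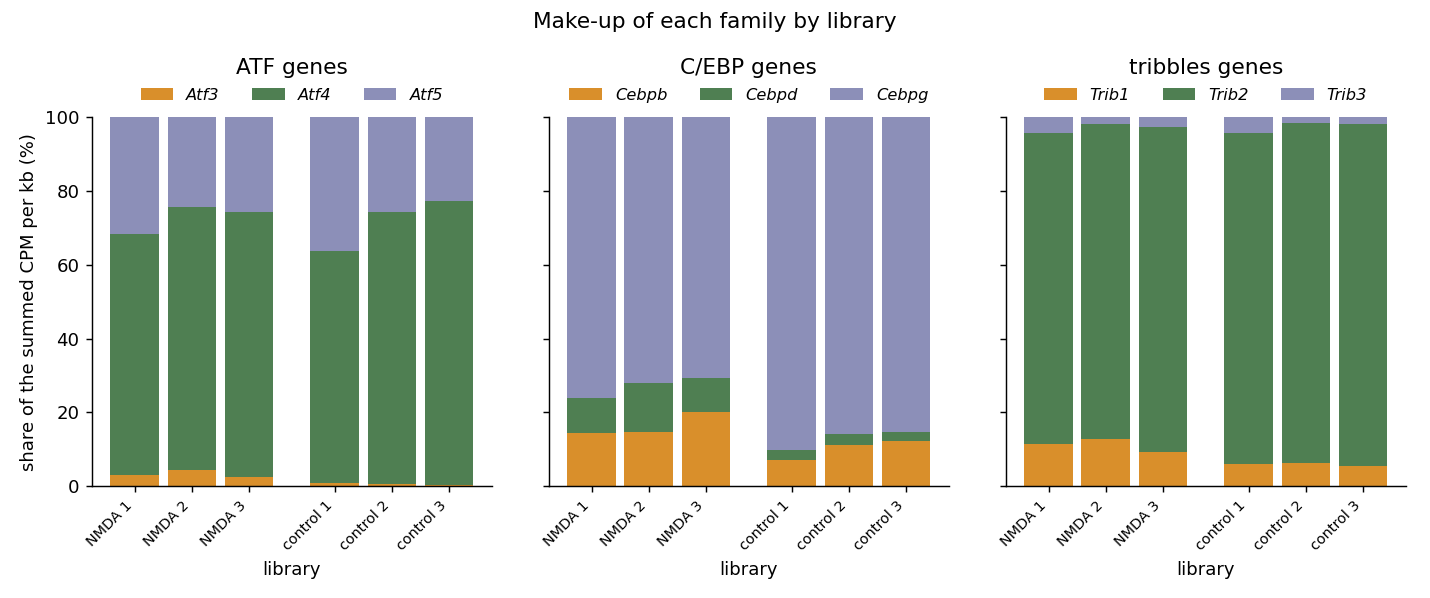
Share (%, y axis) of each gene in the summed CPM per kb of its family, for the ATF, C/EBP and tribbles genes, in 3 NMDA libraries (left bars) and 3 control libraries (right bars). Cebpg holds 70.7% to 76.0% of the C/EBP sum in NMDA libraries and 85.3% to 90.3% in controls.

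Members of a family were also compared within libraries as ratios, which largely restate the fold changes given above. The log2 ratio of Cebpd to Cebpb was 0.69 ± 0.50 in NMDA and -0.48 ± 0.45 in control libraries (SD, n = 3 each), a difference of 1.17. The log2 ratio of Trib1 to Trib2 differed by 1.0 and that of Atf3 to Atf4 by 2.70 between NMDA and control libraries. In all 3 comparisons the groups did not overlap, and the two-sided exact permutation p was 0.1, the smallest that 3 against 3 libraries allow. These p-values are given without adjustment over the 3 comparisons.

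By the root mean square distance between log2 CPM profiles over the 6 libraries, each centred on its control mean, the tested genes nearest to Atf3 were Maff (0.31), Nr4a1 (0.34) and Egr2 (0.40). Those nearest to Cebpd were Egr1 (0.32), Ier2 (0.32) and Ccn1 (0.33), and those nearest to Trib1 were Btg2 (0.11), Sik1 (0.13) and Jun (0.13). They were chosen for their likeness to members that were higher in the same libraries, so a higher level in NMDA libraries follows from the choice.

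The genes around these regulators were followed through 8 lists, from which the members themselves were left out. The lists too were chosen with earlier results of these data known. Their counts stand beside 13.7% of all tested genes at an unadjusted p under 0.05 and, with the block, 5.65% called higher and 8.35% called lower. DESeq2 with the block called 2.83% of all tested genes higher and 3.43% lower. The blocked edgeR fit called 2.27% higher and 4.63% lower without replicate 2, and 4.78% and 5.14% without replicate 3. Genes for eIF2 kinases, the eIF2B exchange factor and the eIF2 phosphatase set the input of the integrated stress response. Of 16 tested, 0 passed in edgeR without the block (1 at an unadjusted p under 0.05; median log2 fold change 0.08), and with it 2 were higher. Ppp1r15a, which encodes the inducible phosphatase subunit GADD34, had 31.3, 29.7 and 26.0 CPM in NMDA replicates 1, 2 and 3, against 20.0, 17.7 and 21.05 CPM in control replicates 1, 2 and 3 (log2 0.56 ± 0.10 with the block). Its groups did not overlap. Impact, an inhibitor of the kinase GCN2, was at 0.23 ± 0.08 with the block. DESeq2 with the block called 1 gene of this list higher, as did the blocked edgeR fit without replicate 2.

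Of 36 tested targets of ATF4 and CHOP, 0 passed in edgeR without the block (9 at an unadjusted p under 0.05; median 0.12), and with it 7 were higher and 2 lower. DESeq2 with the block called 4 higher and 0 lower, and the blocked edgeR fit without replicate 2 called 1 higher and 1 lower. Slc3a2, the heavy chain of amino acid transporters, averaged 160 ± 6.32 CPM in NMDA and 124 ± 8.79 CPM in control libraries (SD, n = 3 each; log2 0.37 ± 0.07 with the block). Pmaip1, which encodes the pro-apoptotic protein NOXA (0.62 ± 0.14), and Sqstm1, an autophagy receptor (0.32 ± 0.08), were also higher with the block, and Ero1l, an oxidase of the endoplasmic reticulum (-0.34 ± 0.08), was lower. Sesn2 (0.34 ± 0.09), Mthfd2 (0.35 ± 0.09), Slc7a5 (0.24 ± 0.07) and Nars (0.25 ± 0.07) were higher with the block too, and Vegfa (-0.27 ± 0.07) was lower. Among targets that passed in neither fit, Asns, asparagine synthetase, was at 0.02 ± 0.08 without the block. Chac1, which degrades glutathione, was at -0.03 ± 0.27 in the same fit.

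In the IRE1 and ATF6 branches of the unfolded protein response 0 of 19 passed without the block (3 at an unadjusted p under 0.05; median 0.05). With it 3 were higher and 1 lower. Herpud1 (0.35 ± 0.10), which acts in degradation from the endoplasmic reticulum, and the co-chaperone genes Dnajb11 (0.24 ± 0.07) and Dnajc3 (0.23 ± 0.07) were higher, and Edem1 (-0.26 ± 0.09), a degradation factor, was lower. None of these 4 calls held in DESeq2 with the block or in the blocked edgeR fit without replicate 2, where 0 of the list passed. Of 11 tested relatives in the ATF, CREB, C/EBP and JDP families, 0 passed without the block (2 at an unadjusted p under 0.05; median 0.16). With the block Jdp2 (0.49 ± 0.12), a repressor close to ATF3, and Crem (0.35 ± 0.11), a cAMP-responsive factor, were higher and Creb1 (-0.26 ± 0.07) was lower. In DESeq2 with the block, and in blocked edgeR fits without replicate 2 or without replicate 3, 0 of this list passed.

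AP-1 genes encode the FOS and JUN proteins with which ATF proteins pair. Of 7 tested, 5 were higher without the block, namely Fos (log2 5.13 ± 0.19), Fosb (6.68 ± 0.38), Junb (3.24 ± 0.21), Fosl2 (1.43 ± 0.16) and Jun (1.14 ± 0.15), and with the block also Jund. Without control replicate 1, 2 or 3, the fit without the block called 4, 3 and 4 of them. Of 16 genes for the COP1 ligase and tribbles partners, 0 passed without the block (1 at an unadjusted p under 0.05; median 0.02). With it Map2k1 (0.30 ± 0.07), a kinase of the ERK cascade, was higher, a call that was lost in the blocked fit without replicate 2.

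Cytokine signals that act on C/EBP genes, together with acute phase genes, had 10 of 19 members tested, since Il6, Lif, Il1b, Tnf, Ccl2, Cxcl1, Lcn2, Saa3 and Hp did not pass the low-count filter. Ptgs2, which encodes the prostaglandin enzyme COX-2, was the only one of the 10 past the threshold without the block. It had 3.02, 2.86 and 2.82 CPM in NMDA replicates 1, 2 and 3, against 0.488, 0.222 and 0.475 CPM in control replicates 1, 2 and 3 (log2 2.85 ± 0.34, edgeR adjusted p = 0.00539). With the block Stat3 (0.45 ± 0.07), Osmr (0.75 ± 0.14) and Socs3 (1.01 ± 0.22) were higher too. Stat3 and Osmr encode parts of the interleukin-6 family pathway and Socs3 its feedback inhibitor. Of 14 tested axon injury genes, Jun was the only one past the threshold without the block (6 at an unadjusted p under 0.05; median 0.16), and with it Klf6 (0.38 ± 0.08), Gadd45a (0.72 ± 0.18), Gap43 (0.32 ± 0.08) and Stmn4 (0.30 ± 0.08) were also higher. The call of Jun without the block was lost when any 1 control library was left out. With the block, DESeq2 called 4 of this list, and edgeR without replicate 2 called 2.

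**Figure D4:**
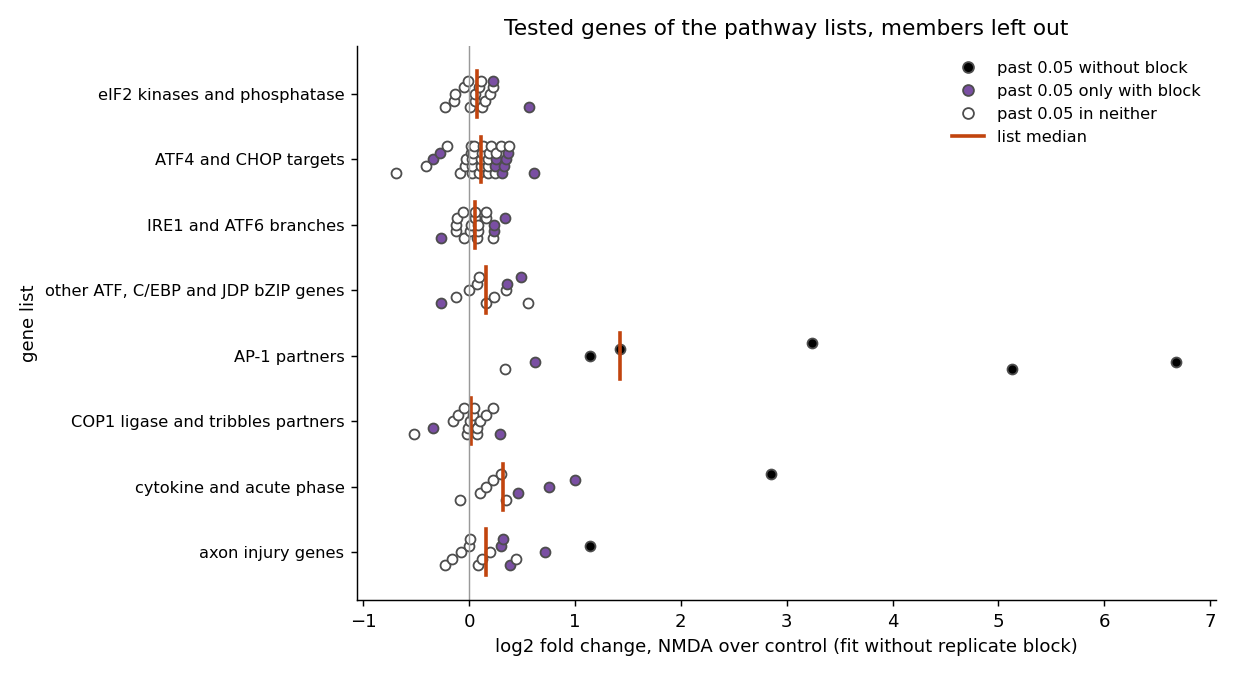
Log2 fold change of NMDA over control (x axis, fit without the block) for the tested genes of 8 lists, members left out. Black points passed an adjusted p of 0.05 without the block, purple points passed only with it, white points in neither, and orange bars are list medians; the AP-1 median of 1.43 lies apart from the other 7, which run from 0.02 to 0.33.

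Library totals ran from 15417234 to 19183999 counted reads. Defining neuronal markers were present. The 5 pan-neuronal markers summed to 4782, 4140 and 4247 CPM in NMDA replicates 1, 2 and 3. In control replicates 1, 2 and 3 they summed to 4857, 4350 and 4807 CPM. The libraries also held astrocyte RNA. Its 10 markers summed to 2368, 2934 and 3606 CPM in NMDA replicates 1, 2 and 3. In control replicates 1, 2 and 3 they summed to 2196, 2257 and 2864 CPM. Of these 10 markers, 7 passed as higher with the block (0 without it), where 5.65% of all tested genes did. Some neuronal markers passed in the same fit too. Of 5 pan-neuronal markers, Rbfox3 (log2 0.40 ± 0.08) and Tubb3 (0.30 ± 0.08) were higher. Of 7 excitatory markers, Neurod2 (0.27 ± 0.08) was higher and Camk2a (-0.39 ± 0.08) was lower. Of 7 inhibitory markers, Sst (0.27 ± 0.07) was higher. Excitatory markers summed to 1141, 951 and 1039 CPM in NMDA replicates 1, 2 and 3. Their control sums were 1241, 1121 and 1252.5 CPM in the same order. Inhibitory markers summed to 597, 577 and 620 CPM in NMDA replicates 1, 2 and 3. Their control sums were 561, 527 and 557 CPM. The 10 oligodendrocyte and precursor markers summed to 1067, 696 and 727 CPM in NMDA replicates 1, 2 and 3. In control replicates 1, 2 and 3 they summed to 1097, 664 and 575 CPM. Microglial RNA was scarce, with 11 markers summing to 10.7 to 18.7 CPM in NMDA and 14.9 to 15.5 CPM in control libraries. The 11 endothelial, fibroblast and mural markers summed to 91.2, 150.9 and 115.7 CPM in NMDA replicates 1, 2 and 3. Their control sums were 77.2, 93.2 and 106.7 CPM in the same order. Of the 8 tested, 1 was higher and 0 lower with the block, at a median log2 fold change of -0.07. In bulk RNA more cells of a type and more RNA per cell cannot be told apart. The part of these marker shifts in the changes of Cebpd, Cebpb or Atf5 was not tested.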

How the data were processed

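Stranded mRNA libraries were sequenced, 3 of NMDA-treated and 3 of untreated neurons, per the labels' protocols. The authors deposited raw read counts per gene; the submitters' processing notes list TopHat, HTSeq and Trimmomatic, with mm10 (GRCm38.p6) as genome build. Tool versions, annotation release and stranded counting are not stated there. Rows without a symbol (2153, holding 0.219% to 0.246% of a library's counts) carry gene identifiers and stayed in the tests.

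The deposited counts were tested over all genes with edgeR 4.0.16 in R 4.3.3 (filter with minimum count 10 and minimum total 15, TMM scaling, robust quasi-likelihood F tests of a model with group alone, Benjamini-Hochberg adjustment, threshold 0.05). CPM uses TMM-scaled library sizes, log2 CPM a prior count of 2, and fold intervals the fit's standard errors at 95%. Poisson intervals cover counting error only. No 2 libraries of a group were copies: chi-square over degrees of freedom, across genes, ran from 8.17 to 59.0.

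Pairing was checked through each library's deviation from its group mean: same-numbered libraries correlated at 0.54 (replicate 1), 0.38 (replicate 2) and 0.49 (replicate 3), all over 0.1, and are treated as pairs. The labels do not state this pairing. The blocked fit has 2 residual degrees of freedom, against 4. Alternatives were DESeq2 1.42.0 (size factors, Wald test, block), upper quartile scaling, limma-voom (limma 3.58.1), other low-count filters, left-out libraries and left-out pairs. The code was tested on simulated counts. Exonic lengths and overlaps came from GENCODE M21, promoters from RefSeq. The text names all 10 members, every list gene called without the block and the 3 nearest genes of each called member. Up to 4 list genes with the smallest p among those called with the block are also named by rule. Asns, Chac1, Sesn2, Mthfd2, Slc7a5, Nars and Vegfa were named after their values were seen. So were the cell type markers and the genes under the low-count filter. Members and lists were chosen with earlier results of these data known. Atf7 of the lists was not analysed here. A single list gene that the rule names is not reported here.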

Additional observations from a re-analysis of the deposited data

How the results depend on the processing

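Atf3 and Trib1 passed under all 17 alternatives, and Cebpd under all but the fit without control replicate 2. Members called higher numbered 3 without the block, 6 with the replicate block, and 4 to 6 in blocked fits with 1 pair left out; leaving out 1 library without the block gave 2 to 3, and no alternative called a member lower. Cebpg, Ddit3, Trib2 and Trib3 passed in none; Trib3 had the opposite sign without NMDA replicate 1 (-0.0079, edgeR adjusted p = 0.995) and was at 0.97 without control replicate 1. The cause of these changes was not tested. Over all genes, 55 were higher and 8 lower; with the replicate block 828 and 1223, with DESeq2 and the block 415 and 502, with DESeq2 alone 143 and 151, and without a low-count filter 130 and 130. EdgeR with DESeq2 size factors gave 5 lower. Leaving out 1 library without the block gave 19 to 89 higher and 0 to 57 lower, and blocked fits without 1 pair gave 335 to 1341 higher and 683 to 1366 lower (705 and 758 without replicate 3). The median log2 fold change of all genes moved by less than the changes reported under each scaling (-0.0054 with TMM, 0.0047 with DESeq2 size factors, 0.0056 with upper quartile scaling). Per kb of the longest transcript the control order of the members was unchanged. Genes with fewer than 50 reads in every control library (Atf3, Cebpb, Cebpd and Trib3) carry the widest counting error.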

Other observations

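Slc7a11, the cystine transporter and a known ATF4 target, was named after its values were seen, for its spread. It had 232, 80.4 and 45.0 CPM in NMDA replicates 1, 2 and 3, against 236, 138 and 199 CPM in control replicates 1, 2 and 3. Its groups overlapped through replicate 1, and it passed neither without the block (log2 -0.69, edgeR adjusted p = 0.669) nor with it (adjusted p = 0.459).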
